A study of Mus musculus with 230 samples.

Results

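The genes described here are 9 that build or steer the growth cone, the motile tip of a growing axon: Gap43, Basp1, Marcks and Marcksl1, the 4 stathmins Stmn1, Stmn2, Stmn3 and Stmn4, and Fscn1. They were taken by name, with earlier results of these data known. All 9 are among the 53278 genes of the count table, which also holds 92 spike-in sequences. The RNA came from neurons of the L4 and L5 dorsal root ganglia (DRG) of C57BL/6 X CAST/Ei cross mice, sensory ganglia whose axons run in the sciatic nerve. Neurons were picked by hand, the cytoplasm went into SMART-seq2 RNA libraries, and the 94 methylation samples made from nuclei were not analysed here. The 18 low-input libraries form 6 groups of 3, neurons after sciatic nerve injury and intact neurons at 1, 8 and 12 months of age. The oldest age is marked 1 year in some labels and is written 12 months for these libraries. A further 69 libraries are single cells, 21 injured and 18 intact at 1 month and 22 injured and 8 intact at 1 year, of which 68 held counts. All groups share the cross background, and the labels name no genotype, drug, animal, pool size, kind of nerve lesion or time after it, so p-values measure the spread between these libraries, which may be technical.

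GAP-43, the product of Gap43, BASP1 and the MARCKS proteins lie under the plasma membrane, where they bind the lipid PIP2 and calmodulin. Protein kinase C and calcium signals change this binding, which acts on the actin cortex. Stathmins bind tubulin dimers and make microtubules less stable. Fascin, the product of Fscn1, ties actin filaments into the straight bundles of filopodia. In adult sensory neurons GAP-43 and the Stmn2 product, also called SCG10, have long been used as markers of axon regrowth.

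The labels were checked first with Sprr1a and Atf3, 2 genes known to rise in axotomised DRG neurons. In low-input libraries Sprr1a stood at 60.5 to 1080 CPM, a count scaled to a common library size, after injury and at 0 to 0.652 CPM in intact neurons, and Atf3 at 79.2 to 515 CPM against 0 to 17.98 CPM. The 10 neuronal markers summed to 7329 to 15966 CPM in every low-input library, satellite glia markers to 350 to 2459 CPM, Schwann cell markers to 216 to 903 CPM, immune markers to 0 to 32.5 CPM, and fibroblast and vessel markers to 0 to 92.1 CPM. Satellite glia sums did not overlap at 1 month, with 1564 to 2459 CPM in injured and 611 to 886 CPM in intact libraries, and 1 of these 10 markers was itself called higher after injury. Fibroblast and vessel sums were apart at 1 month (31.9 to 64.4 against 4.90 to 8.47 CPM) and at 8 months (19.7 to 54.1 against 2.59 to 16.7 CPM), with 1 of 5 tested markers called higher. Immune sums were apart at 8 months, with 6.14 to 11.04 CPM in injured and 0.309 to 3.94 CPM in intact libraries, and 0 of 3 tested markers were called. C1qa, Cx3cr1 and Cldn5, markers of immune cells and vessels, had 0 counts in intact libraries. In injured libraries Cldn5 was also at 0 at 1 and 8 months, and C1qa at 12 months. Mag, a Schwann cell marker, had 0 counts in injured libraries and was detected in intact ones. Averaged over ages, the log2 change was above 0 for 9 of 10 satellite glia and 5 of 5 fibroblast and vessel markers tested. It was above 0 for 2 of 3 immune and 1 of 7 Schwann cell markers. The part of these cells in the results was not tested. A ribosomal RNA-like feature took 29.4% to 93.8% of the 7531967 to 19443627 counts of a low-input library, which left 770328 to 11587094 other counts. It took 29.4% to 59.7% in injured and 40.4% to 93.8% in intact libraries. These ranges overlap over all ages, but within each age every injured library had a smaller share than every intact one. At 1 month the shares were 35.7% to 39.8% in injured and 40.4% to 45.3% in intact libraries. At 8 months they were 41.6% to 59.7% and 65.7% to 68.2%. At 12 months every injured library lay below the lowest intact share, 64.2%. Within an age this share thus went with the injury label. The highest share of the feature was in the second 12-month intact library, where 40.5% of the other counts were mitochondrial. Changes below are relative to the other RNA of a library. Scaled to spike-ins instead, the median gene stood 2.90 higher on the log2 scale after injury.

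After injury, averaged over the 3 ages, Fscn1, Stmn4 and Stmn2 rose, and no member fell. Fscn1 went from a mean of 1.35 ± 2.37 CPM (SD, n = 9) in intact to 47.9 ± 11.7 CPM in injured libraries, Stmn4 from 5.77 ± 5.68 to 52.4 ± 13.8 CPM, and Stmn2 from 1078 ± 381 to 2012 ± 488 CPM. Thus 3 of 9 members were called higher at an adjusted p below 0.05 in edgeR's quasi-likelihood test, against 5.11% of the 14212 genes tested, and 0 of 9 were called lower, against 1.07%. The same 3 genes had every injured library above every intact library within each age, which held for 1.83% of genes. The median log2 change over the 9 members was 1.01, beside 0.03 over all genes tested. Since the members were chosen with earlier results of these data known, these shares describe the set and do not test it. Gap43, the best known of them, was not called, and its level differed widely among intact libraries, as the plot of levels by library shows.

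**Figure D1:**
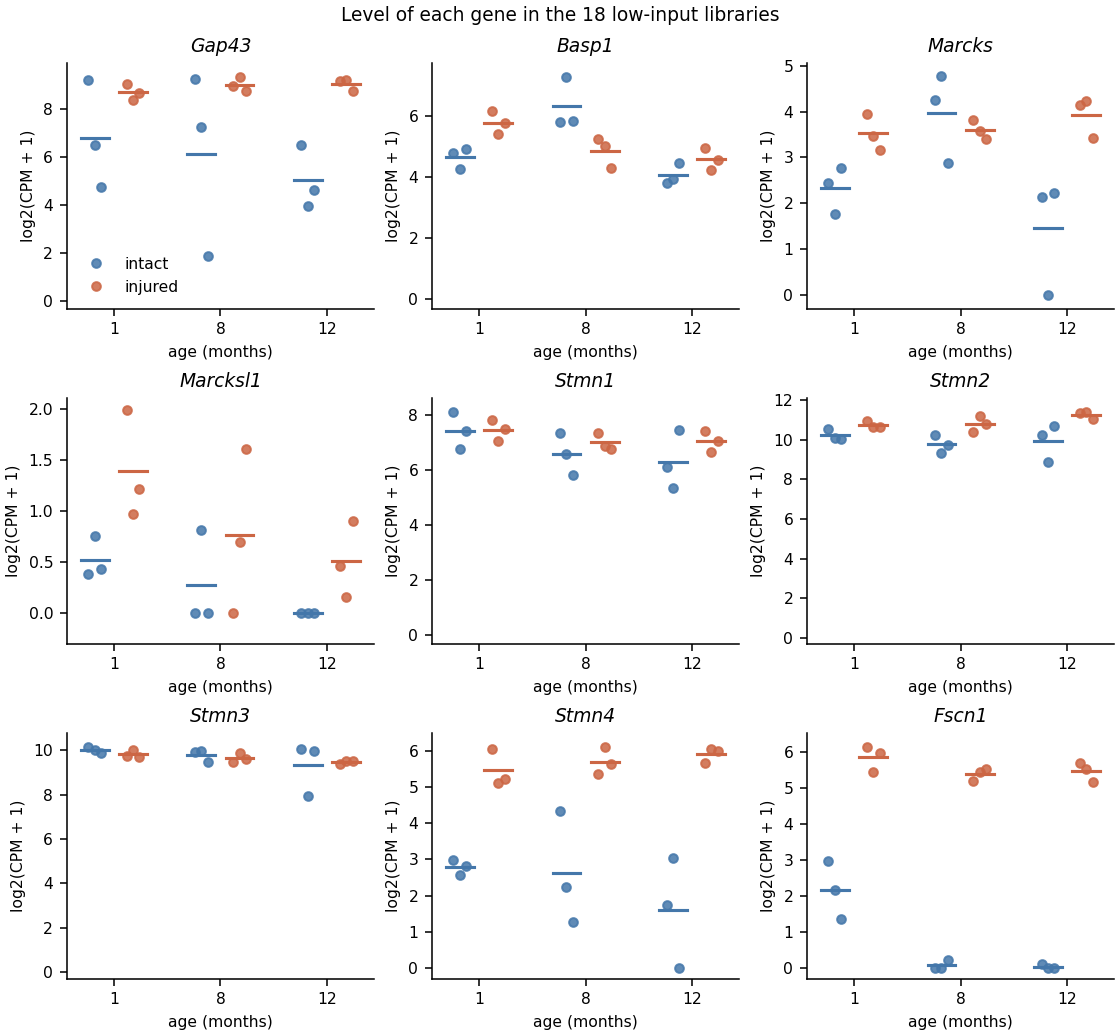
Level of each gene as log2(CPM + 1) in the low-input libraries by age, with 1 point a library (3 per group) and a bar at the group mean of these log2 values. Fscn1 and Stmn4 points of injured libraries all lie above those of intact libraries, while intact Gap43 points span 2.71 to 601 CPM.

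**Figure D2:**
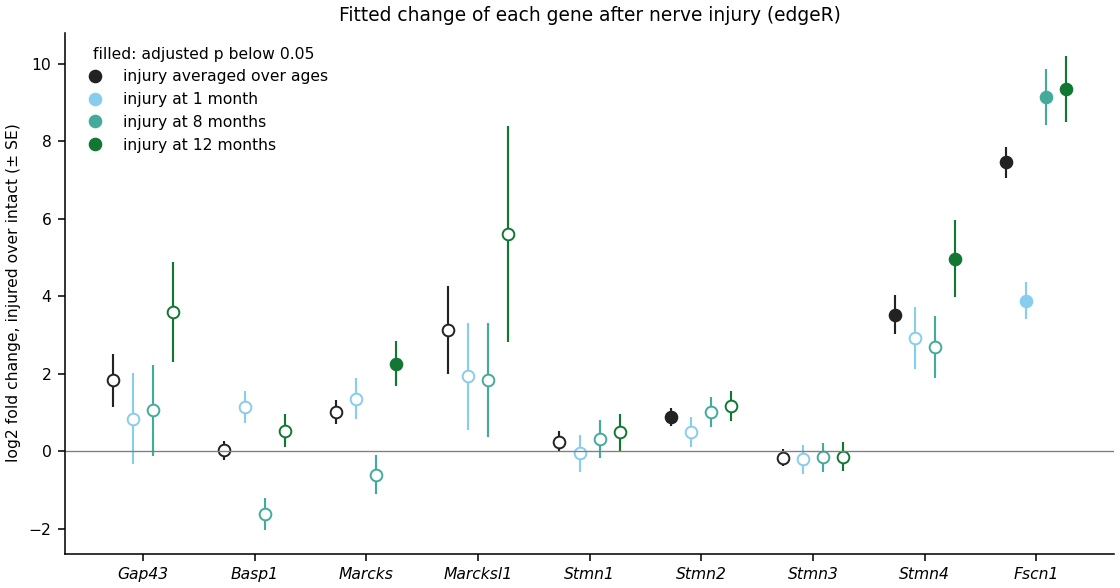
Fitted log2 fold change of each gene, injured over intact, with bars of 1 SE derived from edgeR's F statistic, averaged over the ages and at each age. Filled points have an adjusted p below 0.05, which only Fscn1 has in all 4 comparisons shown.

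Fscn1 (GRCm38, chromosome 5, 142960343 to 142973185, plus strand) was at or near 0 in the intact low-input libraries of the older ages. Its intact libraries held 6.82, 3.52 and 1.56 CPM at 1 month, 0, 0 and 0.164 CPM at 8 months, and 0.0856, 0 and 0 CPM at 12 months. Its injured libraries held 70.4, 43.1 and 62.3 CPM at 1 month, 35.9, 42.7 and 45.1 CPM at 8 months, and 51.3, 45.5 and 35.2 CPM at 12 months. The lowest injured library thus stood above the highest intact one across all ages. At 8 months the injured libraries together had 1664 counts and the intact ones 2, a ratio of 649.9 after scaling (exact 95% interval 179.6 to 5371). At 12 months there were 2077 counts against 1, a ratio of 748.6 (134.2 to 29581). A count of 0 in the intact groups of these ages would still allow 0.0964 and 0.178 CPM, below the pooled 3.69 CPM of intact libraries at 1 month. Intervals and limits here cover counting error only, since copies made by PCR are not independent molecules. The fitted log2 change averaged over ages was 7.46 ± 0.40 (SE, adjusted p = 1.26e-08, edgeR). Satellite glia markers, apart at 1 month, summed at 12 months to 371 to 677 CPM in injured and 410 to 2406 CPM in intact libraries. Fibroblast and vessel sums at 12 months were 35.5 to 61.6 CPM in injured and 0 to 92.1 CPM in intact libraries. Both highest intact sums came from the second 12-month intact library, the one rich in mitochondrial RNA. The other intact libraries held 500 and 410 CPM of satellite glia markers, and 16.4 and 0 CPM of fibroblast and vessel markers. The latter values lie below every injured one. The part of these cells in the Fscn1 change was not tested. In bulk samples, fewer cells with a transcript and less transcript per cell cannot be told apart.

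The bases upstream of the Fscn1 and Stmn3 start sites are shown because, among the 4 members with a promoter in the RefSeq table (GRCm38.p6; Basp1 and Marcksl1 are the others), Fscn1 was the one called after injury and Stmn3 the most abundant of those not called. Each run gives the 250 bases before the start, 5′ to 3′ on the gene's own strand, with capitals for a match on either strand to the AP-1 motif TGANTCA, the cyclic AMP response element TGACGTCA, the E-box CANNTG or the GC box GGGCGG. The windows are chr5:142960105-142960354 on the plus strand and chr2:181314501-181314750 on the minus strand.
Fscn1: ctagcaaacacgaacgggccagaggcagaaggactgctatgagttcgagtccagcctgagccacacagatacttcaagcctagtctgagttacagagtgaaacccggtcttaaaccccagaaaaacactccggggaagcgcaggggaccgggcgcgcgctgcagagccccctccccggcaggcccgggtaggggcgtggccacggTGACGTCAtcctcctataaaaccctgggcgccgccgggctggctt
Stmn3: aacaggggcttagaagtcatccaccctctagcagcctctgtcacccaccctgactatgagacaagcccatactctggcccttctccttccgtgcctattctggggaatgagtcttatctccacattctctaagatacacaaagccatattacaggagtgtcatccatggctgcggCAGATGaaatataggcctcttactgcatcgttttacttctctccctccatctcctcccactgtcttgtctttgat
The Fscn1 window held 1 match, the cyclic AMP response element TGACGTCA with its first base 45 bases before the start, a motif found in 1.56% of 27025 promoter windows of the same length. The Stmn3 window held 1 E-box, CAGATG, first base 75 bases before the start, and an E-box is in 66.2% of all windows. Basp1 had 4 GC boxes, a motif in 32.6% of windows, and Marcksl1 had 1 E-box. None of these 4 windows held the AP-1 motif, which is in 6.87% of windows. CpG pairs, the sites of DNA methylation, numbered 18 in the Fscn1, 30 in the Basp1, 12 in the Marcksl1 and 3 in the Stmn3 window, against a median of 5. The matches describe letters in these windows and are not measured binding.

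Among the stathmins, Stmn4 (chromosome 14, 66344296 to 66361680) had the largest relative change. Intact libraries held 6.97, 4.92 and 6.06 CPM at 1 month, 19.4, 3.68 and 1.396 CPM at 8 months, and 2.31, 7.22 and 0 CPM at 12 months. Injured libraries held 65.7, 33.6 and 36.1 CPM, then 40.4, 68.4 and 48.3 CPM, then 49.6, 65.8 and 63.4 CPM at these ages. No injured library fell below any intact one. The fitted log2 change was 3.53 ± 0.50 (adjusted p = 0.00048, edgeR). With the share of the rRNA-like feature as a covariate it was 3.30 (adjusted p = 0.239).

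Stmn2 (chromosome 3, 8509360 to 8561606) was abundant in both conditions. Injured libraries held 2002, 1578 and 1579 CPM at 1 month, 1330, 2348 and 1798 CPM at 8 months, and 2626, 2729 and 2119 CPM at 12 months. Intact libraries held 1518, 1089 and 1054 CPM, then 1222, 652 and 843 CPM, then 1196, 477 and 1654 CPM. Within an age the groups did not overlap, though the highest intact library at 12 months exceeded several injured ones of the younger ages. The log2 change was 0.89 ± 0.22 (adjusted p = 0.0227, edgeR). This call is fragile. The adjusted p was 0.0562 without the first 1-month, 0.058 without the second 8-month and 0.0523 without the second 12-month injured library. It was 0.105 with the replicate number as a block, 0.115 with scaling to total counts and 0.924 with the covariate. Scaling to total counts, here and below, leaves the rRNA-like feature out of the total.

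The other 2 stathmins passed no test. Stmn3 (chromosome 2, 181306459 to 181314500), a palmitoylated stathmin of neurons, ranged from 664 to 1035 CPM in injured and from 244 to 1135 CPM in intact libraries, with a log2 change of -0.16 ± 0.22 (adjusted p = 0.738, edgeR). Its sign depends on the scaling, with 2.55 under spike-in scaling, below the shift of the median gene. Stmn1 (chromosome 4, 134468320 to 134473843), the cytosolic founding member, ranged from 99.2 to 226 CPM in injured and from 39.7 to 277 CPM in intact libraries, with a log2 change of 0.25 ± 0.28 (adjusted p = 0.669, edgeR). An exon of Gm23634 overlaps Stmn1, so reads there may be shared.

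Per kilobase of exon the mix of stathmins differed in value between the conditions, which is given as a description, with no test. The values use the summed exon length of each gene, 5602 bp for Stmn2 and 1136 bp for Stmn3, and the order of these 2 genes depends on it. By CPM without division by length, Stmn2 stood above Stmn3 in every injured library. Stmn3 gave 66.2% to 84.1% of stathmin CPM per kb in intact and 50.1% to 71.3% in injured libraries. Stmn2 gave 11.04% to 26.3% in intact and 22.03% to 40.4% in injured libraries, and Stmn4 0% to 1.16% and 1.37% to 2.97%. Within each age every injured library had a larger Stmn2 and Stmn4 part than every intact one, while the Stmn3 part overlapped at 1 month. The median ratio of Stmn2 to Stmn3 per kb was 0.239 in intact and 0.483 in injured libraries, with overlapping ranges of 0.131 to 0.397 and 0.309 to 0.802. This ratio does not depend on how libraries are scaled. The summed stathmin level had medians of 1171 CPM per kb in intact and 1167 CPM per kb in injured libraries.

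**Figure D3:**
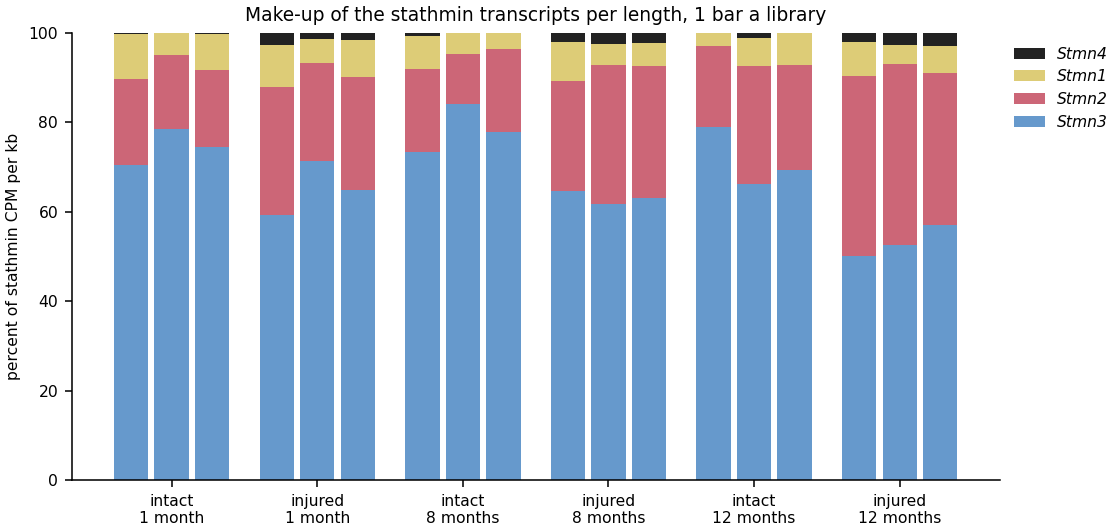
Share of each stathmin in the summed stathmin CPM per kb of exon, in percent, with 1 bar for each of the 18 low-input libraries. The Stmn2 part is wider in injured than in intact bars of the same age, and Stmn4 reaches 1.37% to 2.97% of every injured bar.

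Gap43 (chromosome 16, 42248442 to 42340651, minus strand) was high in every injured library and anything from high to nearly absent in intact ones. Injured libraries held 527, 330 and 399 CPM at 1 month, 492, 649 and 432 CPM at 8 months, and 577, 593 and 428 CPM at 12 months. Intact libraries held 584, 88.9 and 25.9 CPM, then 601, 151 and 2.71 CPM, then 88.3, 14.4 and 24.1 CPM. The first intact libraries of the 2 younger ages were thus as high as injured ones, and the groups separated at 12 months alone. The highest and lowest intact library differed 221.9-fold, the injured ones 1.97-fold. The log2 change was 1.83 ± 0.69 (adjusted p = 0.139, edgeR). Without the first 1-month intact library it was 2.51 (adjusted p = 0.0424) and without the first 8-month one 2.40 (adjusted p = 0.0473), and limma-voom with quality weights gave 2.98 (adjusted p = 0.0193).

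Of the other cortical membrane proteins none was called in the averaged comparison. Basp1 (chromosome 15, 25363277 to 25413764) held 27.1, 18.2 and 29.5 CPM in intact libraries at 1 month, 55.2, 157 and 56.9 CPM at 8 months, and 12.9, 14.4 and 21.1 CPM at 12 months. Injured libraries held 70.8, 41.5 and 53.99 CPM, then 37.6, 31.8 and 18.6 CPM, then 30.1, 17.99 and 22.8 CPM. Injured libraries were all higher at 1 month and all lower at 8 months, and at 12 months the groups overlapped. How many of all genes separate in this way was not counted. The averaged log2 change was 0.02 ± 0.24 (adjusted p = 0.975, edgeR), and its sign changed with limma-voom and without any of 7 single libraries.

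Marcks (chromosome 10, 37133375 to 37138920), the widely expressed kinase C substrate, had a similar swing in intact libraries, with 4.42, 2.39 and 5.83 CPM at 1 month, 18.1, 26.3 and 6.32 CPM at 8 months, and 3.42, 0 and 3.69 CPM at 12 months. Injured libraries stayed at 7.95 to 17.6 CPM. The groups were apart at 1 and 12 months and overlapped at 8 months. The averaged log2 change was 1.01 ± 0.31 (adjusted p = 0.0603, edgeR), with an adjusted p of 0.018 in DESeq2, 0.0329 without the second 8-month intact library and 0.0432 without the second 12-month one.

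Marcksl1 (chromosome 4, 129513581 to 129515985), its smaller relative, was close to the limit of detection, at 0 to 2.96 CPM in injured and 0 to 0.757 CPM in intact libraries. At 12 months 20 counts stood against 0, at least 2.40-fold higher over a floor of 3 counts for the group. The averaged log2 change was 3.13 ± 1.14 (adjusted p = 0.123, edgeR), stood at -2.78 with the covariate, and had an adjusted p of 0.0293 without the second 8-month intact library. Per kilobase, mean levels in injured libraries ran Stmn3 (708 ± 106 CPM per kb, n = 9), Stmn2 (359 ± 87.1), Gap43 (323 ± 68.1), Stmn1 (76.5 ± 21.03), Stmn4 (27.3 ± 7.19), Basp1 (17.98 ± 8.66), Fscn1 (15.9 ± 3.88), Marcks (3.02 ± 0.841) and Marcksl1 (0.643 ± 0.598). The ranges of mean ± SD of the neighbours Stmn2 and Gap43, Stmn4 and Basp1, Basp1 and Fscn1 overlap. The order depends on the summed exon lengths, and by CPM Stmn2 exceeded Stmn3 in every injured library. In intact libraries the order was Stmn3 (793 ± 239.9), Stmn2 (192 ± 67.95), Gap43 (115 ± 158), Stmn1 (66.3 ± 39.2), Basp1 (21.7 ± 22.7), Stmn4 (3.01 ± 2.96), Marcks (1.93 ± 2.12), Fscn1 (0.448 ± 0.788) and Marcksl1 (0.144 ± 0.193), and there only Stmn3 and Stmn2 are neighbours whose ranges do not overlap.

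At 1 month 1 of 9, Fscn1, was called higher (log2 3.89 ± 0.49, adjusted p = 0.000993, edgeR), against 0.232% of all genes. Whether the replicate numbers pair the libraries is not settled at this or the other ages. With a replicate block 5 genes in all were called, Fscn1 among them (4.06, adjusted p = 0.0315). Stmn4 at 1 month had a log2 change of 2.92 ± 0.80 (adjusted p = 0.297), with an adjusted p of 0.0402 without the first 8-month intact library. At 8 months 1 of 9, again Fscn1 (9.15 ± 0.72, adjusted p = 5.70e-06, edgeR), was called, against 0.915%, and limma-voom gave it an adjusted p of 0.0762. Stmn4 at 8 months reached 4.39 (adjusted p = 0.0202) without the first intact library of that age, from 2.69 (adjusted p = 0.131) with it. At 12 months 3 of 9 were called higher, against 2.19%: Fscn1 (9.35 ± 0.85, adjusted p = 3.42e-05), Stmn4 (4.98 ± 1.00, adjusted p = 0.0170) and Marcks (2.26 ± 0.58, adjusted p = 0.0432). The fitted size of the 2 Fscn1 changes over groups near 0 depends on the prior count and is no bound. Stmn4 at 12 months lost its call without the second 12-month injured library (0.0549), and Marcks lost it without any of 12 of the 18 libraries, with adjusted p-values of 0.052 to 0.146. With the replicate block Stmn4 (0.0823) and Marcks (0.177) were not called, nor with only the libraries compared (0.0817 and 0.133), and with the covariate none of the 3 was (Fscn1 0.0606, Stmn4 0.368, Marcks 0.429). Without the second 12-month intact library, the one rich in mitochondrial RNA, all 3 were called (9.31, 5.43 and 2.05 for Fscn1, Stmn4 and Marcks). Gap43 at 12 months was 3.59 ± 1.29 (adjusted p = 0.146), and 0.0416 was its adjusted p without the third 8-month intact library.

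Whether the injury change differed between ages was tested jointly. No member passed, and 0% of all genes did, although 3 members and 1161 genes had an unadjusted p below 0.05, and DESeq2 called 207 and limma-voom 6 genes. Fscn1 came nearest (adjusted p = 0.0607, edgeR), with 0.0136 to 0.0427 when any of 5 single libraries was left out and 2.53e-06 in DESeq2. These were the third 1-month intact, the first 8-month injured, the third 8-month intact and the first and second 12-month intact libraries. DESeq2 also called Basp1 (0.0048) and Marcks (0.0461), which had 0.229 and 0.366 in edgeR. Age among intact neurons was called for 3 of 9 members, Fscn1 (adjusted p = 0.000397), Basp1 (0.00838) and Marcks (0.0242), against 4.17% of genes. Fscn1 had its highest intact level at 1 month, Basp1 and Marcks at 8 months. Fitted to the 9 intact libraries alone, these 3 had adjusted p-values of 0.254, 0.200 and 0.370, and Marcks had 0.109 without the second 8-month intact library. Among injured neurons age was called for 0 of 9 members, against 0.218% of genes, with 1 member at an unadjusted p below 0.05, 0 called by DESeq2 and 1, Basp1, by limma-voom (0.00755). Over all genes DESeq2 called 132 and limma-voom 1258 there.

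Of 92 partner genes on 4 lists, 8 of the 90 tested passed in the averaged injury comparison, 5 higher and 3 lower, beside 5.11% and 1.07% of all genes. The lists, too, were chosen with earlier results of these data known. Of 20 tested cortical-membrane partners 1 was called higher, 1 lower and 18 not, with a median log2 change of -0.21. Ncam1, the neural cell adhesion molecule, rose from 42.3 ± 26.98 to 108 ± 24.8 CPM (n = 9; log2 1.59 ± 0.20, adjusted p = 0.000141, edgeR). Prkce, an isoform of protein kinase C, fell from 98.0 ± 46.1 to 55.2 ± 11.8 CPM (adjusted p = 0.0345), though it stood at 2.18 under spike-in scaling, below the shift of the median gene, and was not called with scaling to total counts (adjusted p = 0.238). Of 25 microtubule partners 2 were called higher and 0 lower, with a median of -0.02. They were the collapsin response mediators Crmp1 (log2 0.62 ± 0.16, adjusted p = 0.0291) and Dpysl5 (0.59 ± 0.14, adjusted p = 0.0177), and scaling to total counts ended both calls (adjusted p = 0.0540 and 0.144).

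Of 30 actin partners 2 were called higher and 2 lower, with a median of 0.06. Cttn, the actin-branch binding cortactin, rose from 59.7 ± 18.95 to 121 ± 17.4 CPM (n = 9; log2 1.04 ± 0.18, adjusted p = 0.00175, edgeR). The 2 cofilin kinases moved apart, with Limk2 up by 0.69 ± 0.18 (adjusted p = 0.0255) and Limk1 at -0.76 ± 0.16 (adjusted p = 0.00762). Vasp, which speeds filament elongation, stood at -0.66 ± 0.19 (adjusted p = 0.0422). Under spike-in scaling Limk1 and Vasp stood at 2.18 and 2.30, below the shift of the median gene, so their fall is relative to other RNA, and with scaling to total counts neither was called (adjusted p = 0.132 and 0.229). Of 15 tested genes of protein acylation and mRNA binding, which include regulators of these messages, 0 were called and the median was 0.02. The median over all genes tested was 0.03.

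The genes whose levels ran closest to each member over the 18 libraries, by Pearson's r of log2 CPM, differed between members. For Gap43 they were Abcg2 (r = 0.96), Asic3 (0.95) and Cdhr1 (0.94). For Stmn2 they were Net1 (0.95), Jpt1 (0.92) and the tubulin Tuba1a (0.92), and for Marcks Syne2 (0.95), Rbm45 (0.94) and the tubulin Tubb2a (0.94). For Stmn4 they were Klf6 (0.96), Itga7 (0.93) and Arhgap42 (0.92), and for Fscn1 Prex2 (0.98), Draxin (0.98) and Fhl2 (0.97). For Stmn3 they were Drap1, Gadd45gip1 and Fam98c (0.96 to 0.97), with lower values for the nearest genes of Stmn1 (Zc3h3, 0.83), Basp1 (Fam207a, 0.85) and Marcksl1 (P3h4, 0.88). No member was among the 3 closest genes of another. Between members the highest r was 0.81, of Stmn4 and Fscn1, but it was 0.28 within the 9 intact and 0.01 within the 9 injured libraries. These values share libraries, depth and the injury contrast and are given without a test.

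Single cells show in how many picked cells each message was found, with libraries of few detected genes included. Since no animal is named for a cell, each group is 1 sample, no test was made, and intervals cover counting error only. Their CPM leave the rRNA-like feature out of the total, and cells held 281 to 22890735 such counts, with medians of 1033580 and 291824 in injured and intact cells at 1 month and 3571620 and 7145020 at 1 year. By pooled CPM the injury check held at 1 month, where Sprr1a was 1853 CPM in injured and 0.908 CPM in intact cells. Atf3 pooled to 805 and 72.4 CPM. A single cell gave 47.6% of the injured Sprr1a counts, and a single cell 49.4% of the injured Atf3 counts. Cell by cell Atf3 separated the labels little, with at least 10 CPM in 15 of 21 injured and 12 of 18 intact cells. Sprr1a reached that level in 1 of 18 intact cells. In cells labelled injured at 1 year Sprr1a was 5.4 CPM, with 58.6% of its counts from 1 cell, against 0.178 CPM, and Atf3 was 80.6 against 62.5 CPM. At least 10 CPM of Sprr1a was found in 9 of 21 cells labelled injured at 1 month and in 3 of 21 at 1 year.

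At 1 month 3 of 9 members were past 2-fold higher in injured cells by pooled CPM, against 6.52% of 9464 genes, and 1 was past 2-fold lower, against 11.8%. Fscn1 stood at 148 CPM (95% Poisson interval 145 to 151) in injured and 9.03 CPM (8.08 to 10.1) in intact cells. The low-input libraries of that age, on the same scale, gave 147 and 9.15 CPM. Yet 7 of 21 injured cells (33.3%, exact interval 14.6% to 56.97%) and 7 of 18 intact cells (38.9%, 17.3% to 64.3%) held at least 10 CPM. Some passed on very few counts. The intact cells held 1, 1, 3, 6, 41, 85 and 169 counts of Fscn1. The injured cells held 2, 4, 347, 714, 1255, 1849 and 3464. Thinned to 100000 counts a cell, with 4 injured and 6 intact cells too shallow left out, 7 of 17 injured and 5 of 12 intact cells had a count of Fscn1. The injured cells with the message had more of it, up to 612 CPM against 67.3 CPM, and 1 cell gave 45.3% of the injured counts. Gap43 reached that level in 7 of these 7 injured cells, beside 17 of all 21, and in 6 of the 7 intact cells, and Sprr1a did in 5 of the 7 injured and 1 of the 7 intact cells. The median injured cell held 0 CPM and the median intact cell 0.791 CPM of Fscn1. The intact median lies midway between 0 and the 1.58 CPM of a cell with 1 count, so the medians give no direction.

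Stmn4 stood at 68.96 CPM (66.7 to 71.3) in injured and 13.95 CPM (12.8 to 15.2) in intact cells at 1 month, with 9 of 21 and 6 of 18 cells at 10 CPM or more and, after thinning, 9 of 17 and 7 of 12 cells with a count. Marcks stood at 39.8 against 17.8 CPM, with 12 of 21 and 5 of 18 cells, and 13 of 17 and 4 of 12 after thinning. Stmn1 was lower, 525 against 1095 CPM, but 1 intact cell gave 57.9% of the intact counts, and leaving out single cells moved its log2 ratio between -1.29 and -0.11. The median cell gave the reverse order, 508 CPM in injured and 288 CPM in intact cells. Leaving out single cells kept Fscn1 between 3.33 and 4.78, Stmn4 between 1.57 and 2.64 and Marcks between 0.63 and 2.08, so that Marcks could drop under 2-fold.

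Gap43 spread over a wide range of levels in both conditions. At 1 month it ranged from 0 to 4062 CPM in injured cells (median 1213 CPM) and from 0 to 2380 CPM in intact cells (median 27.1 CPM). The injured cells at 0 had only 310, 458 and 608 genes detected, with 36.9% to 68.3% of other counts mitochondrial. Some intact cells at 0 were as poor, with 109, 561 and 1141 genes. Such cells stay in the shares of cells given here. At least 10 CPM of Gap43 was found in 17 of 21 injured (80.95%, 58.1% to 94.6%) and 10 of 18 intact cells (55.6%, 30.8% to 78.5%), and a count after thinning in 15 of 17 and 7 of 12. The pooled values, 1308 and 767 CPM, were less than 2-fold apart, while the mean over cells with equal weight, 1261 and 408 CPM, was more. Stmn2 and Stmn3 were near universal, with at least 10 CPM of Stmn2 in 21 of 21 injured and 16 of 18 intact cells. Marcksl1 had 0 counts in the 21 injured cells, which allows up to 0.058 CPM, and 132 counts (3.63 CPM) in intact cells, 57.6% of them from 1 cell.

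At 1 year 0 of 9 members were past 2-fold in pooled CPM, against 7.82% of 9956 genes higher and 6.17% lower. Fscn1 was 7.05 CPM (6.52 to 7.61) in cells labelled injured and 8.95 CPM (8.19 to 9.77) in intact cells, and Stmn4 16.7 and 16.9 CPM. These values lie far from those of the low-input libraries at 12 months on the same scale, 113 and 0.137 CPM for Fscn1 and 151 and 4.23 CPM for Stmn4. In 7 of 8 intact cells Fscn1 reached 1 CPM, with a highest cell of 43.1 CPM. Gap43 pooled to 562 CPM in cells labelled injured and 422 CPM in intact cells, with 16 of 21 and 6 of 8 cells at 10 CPM or more. Satellite glia markers summed to a pooled 8493 CPM in cells labelled injured and 2422 CPM in intact cells at 1 year, against 825 and 1451 CPM at 1 month. Their part in the values at 1 year was not tested.

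**Figure D4:**
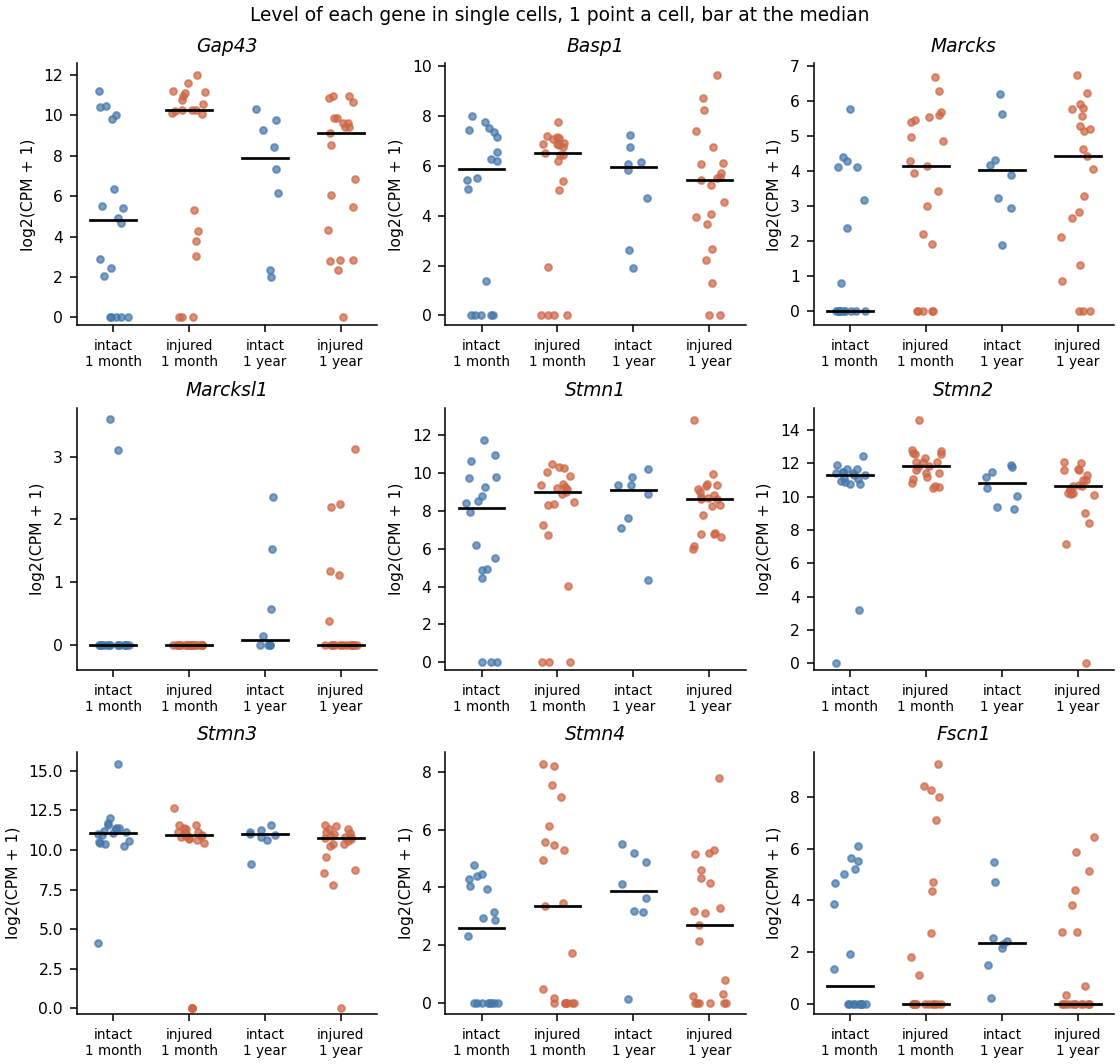
Level of each gene as log2(CPM + 1) in single cells of the 4 groups, with 1 point a cell and a bar at the median. Gap43 cells at 1 month reach from 0 to 4062 CPM, Fscn1 medians of injured cells lie at 0, and the cells with the most Fscn1 (up to 612 CPM) are injured cells at 1 month.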

How the data were processed

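RNA of 18 low-input libraries and 69 single cells was analysed as raw fragment counts per gene. Per the file headers, the authors counted with featureCounts 1.5.2 in paired mode over exons by gene name, with GENCODE vM16 and spike-in sequences. Per the submitters' processing notes, Trim Galore, STAR and featureCounts were used on mm10. The deposited exon length (unit other) served for values per kb. Strand was not used in counting, so reads of overlapping genes cannot be told apart.

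Low-input counts were fitted in edgeR 4.0.16 (R 4.3.3) with filterByExpr, TMM scaling and a robust quasi-likelihood model of 6 group means over 18 libraries, which kept 14212 genes and 12 residual degrees of freedom. A gene counted as called when its two-sided p, adjusted by Benjamini-Hochberg over every gene tested, was below 0.05. All 9 members passed the filter. CPM scale counts to the TMM-adjusted library size, and log2 changes carry edgeR's prior count. The SE given is the absolute log2 change divided by the square root of edgeR's F statistic. It is approximate, above all where a group is near 0 counts. The fit was tested on simulated data. Replicate numbers were checked by correlating deviations from group means over 1669 genes with a mean of at least 50 CPM. At 1 month the same-number values were 0.206, 0.218 and 0.485, and the different-number values ran from -0.427 to 0.210. The first intact library was as close to the second injured one (0.210) as to the first (0.206). Libraries of different numbers reached 0.608 at 8 months, so these values cannot settle a pairing at 1 month. At 8 and 12 months the highest values, 0.608 and 0.149, were between libraries of different numbers. They cannot settle a pairing at those ages either.

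Cell counts were pooled per group as CPM without the most abundant feature, left out after its share was seen. The genes named are all members, at most 4 called genes with the largest change per partner list, and the 3 genes closest to each member. Members and lists were chosen with earlier results of these data known. Alternatives were DESeq2 1.42.0, limma-voom (limma 3.58.1), other scalings, no filter, a covariate, a replicate block and leaving out each library. The other scalings were RLE, spike-ins, and total counts without the most abundant feature. Methylation samples and repeat deposits under 1 name were not used. Neuron subtype markers are not reported here.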

Additional observations from a re-analysis of the deposited data

Results flagged for a closer look

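Basp1 lay in opposite directions at 2 ages, with every library on its side. The share of all genes with such a pattern was not counted, so it cannot be judged how unusual it is. The fitted log2 change, injured minus intact, was 1.15 ± 0.41 (SE) at 1 month, where all 3 injured libraries lay above all 3 intact ones, and -1.61 ± 0.41 at 8 months, where all 3 lay below. Neither single change was called (adjusted p = 0.669 and 0.076, edgeR), and the joint test of injury by age gave an adjusted p of 0.229 in edgeR and 0.0048 in DESeq2. Intact libraries held 55.2 to 157 CPM of it at 8 months and 18.2 to 29.5 CPM at 1 month.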

How the results depend on the processing

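The averaged injury call of Fscn1 held under every alternative run, that of Stmn4 under all but the covariate. Of 9 members, 3 were called in the averaged comparison, 9 with spike-in scaling, 6 with no filter and 1 with the covariate. At 1 month 1 was called, 0 with spike-in scaling and 2 with no filter, DESeq2, limma-voom or only the libraries compared. Over all genes 33 were called, and 50, 276, 123, 90 and 50 with these settings in the order named. The genes tested were 14212, but 28520 with no filter and 12065 to 13441 with only the libraries compared. At 8 months 1 was called, 2 with spike-in scaling, 3 with no filter or DESeq2 and 0 with limma-voom. All genes called were 136, and 631, 661, 533 and 3 in that order of settings. At 12 months 3 were called, 9 with spike-in scaling, 5 with DESeq2, 1 with only the libraries compared or the replicate block and 0 with the covariate. All genes called were 425, and 13675, 1238, 52, 58 and 0 in that order, so spike-in scaling called nearly every gene. The test of injury by age called 0, and 1, 4 and 3 with spike-in scaling, no filter and DESeq2, beside 0, 60, 385 and 207 of all genes. Age called 3 among intact neurons, 9 with spike-in scaling, 5 with no filter, 1 with limma-voom and 0 with only the libraries compared. All genes called there were 593, and 12158, 1951, 507 and 5 in that order. Among injured neurons age called 0 members, and 1 with limma-voom, beside 31 and 1258 of all genes. Leaving out 1 library gave 2 to 5 members in the averaged comparison, 1 to 2 at 1 and at 8 months, 1 to 4 at 12 months, 0 to 1 for injury by age, 2 to 3 for age in intact and 0 to 0 in injured neurons. All genes called ran from 6 to 47 at 1 month, 27 to 236 at 8 months and 74 to 1036 at 12 months. They ran from 0 to 20 for injury by age, 254 to 1697 for age in intact and 14 to 42 in injured neurons.

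Over all genes the averaged comparison called 878, with 13493 under spike-in scaling, 1722 with no filter, 1548 in DESeq2, 11 with the covariate and 329 with the replicate block, which also took the counts from 33 to 5 at 1 month, 136 to 29 at 8 months and 425 to 58 at 12 months. Leaving out 1 library moved the averaged count between 561 and 1462, the latter without the second 12-month intact library. At 8 and 12 months the numbers share no more than a number; same-number correlations were -0.498, -0.352 and 0.106, and -0.0855, -0.0976 and 0.0823.

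Signs changed as follows; the cause was not tested. Stmn3 was 2.55, 1.11, 1.76 and 4.78 with spike-in scaling in the averaged comparison and at 1, 8 and 12 months, and 0.10 at 12 months with the replicate block. Stmn1 at 1 month was 1.71 with spike-in scaling, 0.17 with limma-voom and 0.0203 with the block. Marcks at 8 months was 0.84 with spike-in scaling. With the covariate Marcksl1 was -2.78, -4.75 and -3.82 in the averaged comparison and at 8 and 12 months, and Stmn2 was -0.20 at 12 months. Basp1 was -0.0142 in the averaged comparison with limma-voom. Without 1 library, Basp1 averaged ran from -0.0576 to 0.25, Stmn1 at 1 month from -0.32 to 0.36 and Stmn3 at 12 months from -0.55 to 0.18. In single cells 4 members were past 2-fold at 1 month and 0 at 1 year, and 2 at each age by the median cell plus 1 CPM, with log2 ratios of 0.82 for Stmn1 and -0.84 for Fscn1 at 1 month. The Fscn1 ratio comes from medians at or near 0 CPM and gives no direction. Leaving out single cells was added after the data were seen.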
